A study of Rattus norvegicus with 63 samples.

Results

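Methylphenidate in the striatum of drug-naive rats was described from 8 Affymetrix arrays of 63 in the series. They were chosen by their labels: the 3 striatal arrays of cohort 1 rats given methylphenidate at 5 mg/kg, and the 5 striatal arrays of the matched saline controls. Methylphenidate blocks the dopamine and noradrenaline transporters. In the striatum, which receives the densest dopamine input of the brain, a first dose of a psychostimulant is known to raise immediate early genes such as Fos, Egr1 and Arc in projection neurons within the hour. These genes are copied to mRNA for a short time after synaptic activity, and several of their proteins then switch on or restrain later genes.

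All rats of both groups were male Wistar rats, bought at 4 weeks of age and first injected at 6 weeks. Both groups received saline intraperitoneally 2 times a day for 7 days and are therefore called naive. The methylphenidate rats were then conditioned in a place preference test with methylphenidate at 5 mg/kg and self-administered it at 0.25 mg per infusion of 0.1 ml. The control rats were conditioned with saline and self-administered 0.1 ml infusions of saline. The other arrays used here were naive striatum from rats given amphetamine or methamphetamine at the same 5 mg/kg conditioning dose and 0.1 mg/kg per infusion (3 arrays each), striatum from rats pretreated, conditioned and tested with methylphenidate (3 arrays) and their saline controls (3 arrays), and prefrontal cortex of naive rats given methylphenidate (3 arrays) or saline (5 arrays). The time from the last drug intake to tissue collection is not given in the sources used here. The labels list more rats per group than there are arrays and do not say whether an array holds 1 rat, so p-values measure the spread between arrays.

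The deposited values were signal intensities, given below as log2 signal. Each array had been scaled to the same mean, with a trimmed mean signal of 500.1 to 500.2. The arrays stood in 2 sets by the signal of the spiked-in bacterial transcript BioB, a hybridisation control added to every sample: 6.45 to 6.67 log2 units on the methylphenidate arrays, 6.65 to 6.85 on saline replicates 4 and 5, and 9.77 to 9.92 on saline replicates 1 to 3. The 3′ over 5′ ratio of the Gapdh control probe sets, a measure of how complete the labelled RNA is, went with that split on these 8 arrays. It was 1.13 to 1.23 log2 units on the methylphenidate arrays, 1.14 to 1.16 on saline 4 and 5, and 0.528 to 0.574 on saline 1 to 3. This did not hold over the series, as pretreated methylphenidate striatum, of high BioB signal, had 1.07 to 1.17. The labels name no batch. The comparison with saline was therefore made against all 5 saline arrays, and again against saline 4 and 5, which share the low BioB signal. One label of saline replicate 1 reads as prefrontal cortex while its title and tissue say striatum. The mean log2 signal of 25 striatal projection neuron markers minus that of 10 cortical excitatory neuron markers was 1.77 to 2.54 on the methylphenidate arrays, 1.91 to 2.06 on saline 4 and 5 and 2.74 to 2.93 on saline 1 to 3, against -3.17 to -1.97 on prefrontal arrays. All 8 arrays, saline 1 included, thus had a striatal profile.

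**Figure D1:**
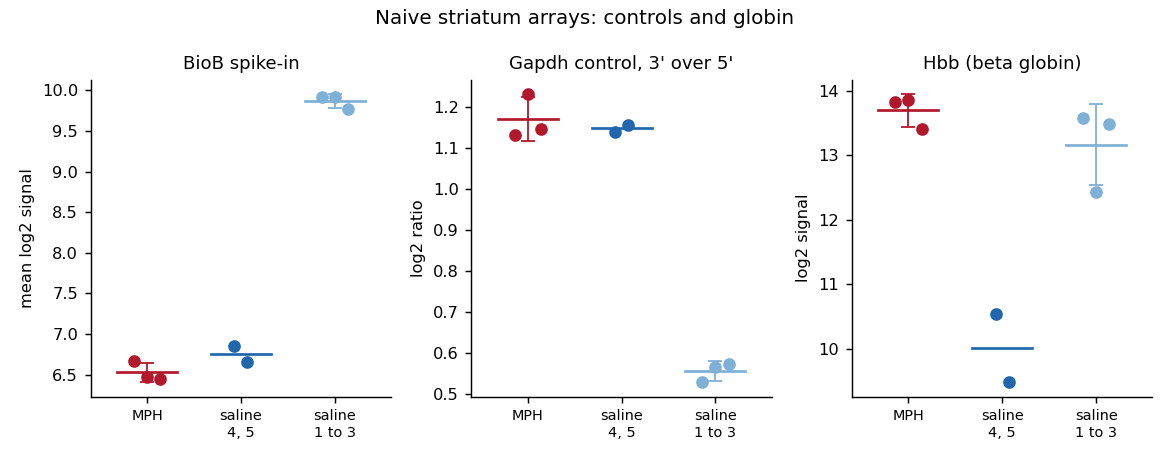
Log2 signal of the BioB spike-in, log2 ratio of the 3′ over the 5′ Gapdh control and log2 signal of Hbb on each naive striatal array (points), with the group mean (line) and SD (bars, groups of 3). The methylphenidate arrays (MPH) lie with saline 4 and 5 for both controls, and with saline 1 to 3 for Hbb.

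Against all 5 saline arrays, methylphenidate striatum had 9 genes lower and 2 higher of 8530 genes tested (limma, Benjamini-Hochberg adjusted p under 0.05). This is 0.129% of the genes tested, 0.106% lower and 0.0234% higher. The unadjusted p was under 0.05 for 1131 genes, and the median difference over all genes was 0.0065 log2 units. Among the genes that passed, Arc fell most, and its product acts at the postsynaptic side to remove AMPA receptors. The other genes that fell were Mmp14, Dnm3, Nsrp1, Septin3, Zfp365, Fkbp8, Gosr2 and Nucks1, and Tpd52l2 and Phip rose. The count rested on single arrays. It was 0 without saline 3 or without methylphenidate 1, 1 without saline 2, 2 without methylphenidate 2, 41 without saline 4 and 119 without saline 5, and the last 2 of these fits kept all 11 genes.

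Arc had log2 signals of 7.69, 7.92 and 8.15 on the methylphenidate arrays, against 8.85, 9.38, 9.87, 9.45 and 9.24 on saline arrays 1 to 5. Every methylphenidate array lay below every saline array. The difference was -1.44 ± 0.27 log2 units (SE), a signal 0.369 times that of saline (limma adjusted p = 0.0209). Against saline 4 and 5 alone it was -1.43 ± 0.34 (adjusted p = 0.345), and saline 4 and 5 differed from saline 1 to 3 by -0.02 ± 0.34. Arc no longer passed without saline 2, saline 3, methylphenidate 1 or methylphenidate 2, with adjusted p-values of 0.0606, 0.108, 0.177 and 0.151.

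Arc belongs to a list of genes that respond to neuronal activity. Of its 43 entries, 41 were named on the arrays and 26 passed the filter on low signal. The promoter windows of Egr2, Nr4a1 and Dusp1, 3 members that stood low with Arc, are shown as examples of the sequence elements through which calcium and cAMP signals are known to reach such genes. They are RefSeq sequences of build GRCr8, from 250 bases before to 50 bases after the gene start, read 5′ to 3′ on the gene's strand, and 20 of the 26 genes had such a window. Capitals mark TGACG on either strand, the core of the cAMP response element, and the CArG box, the site of serum response factor. TGACG stood in 21.2% and the CArG box in 1.64% of 33469 promoter windows of 300 bases, and in 12 and 2 of the 20 activity gene windows. The windows lie at chr20:21054392-21054691 (minus strand) for Egr2, chr7:134259888-134260187 (plus strand) for Nr4a1 and chr10:17184603-17184902 (plus strand) for Dusp1.
Egr2: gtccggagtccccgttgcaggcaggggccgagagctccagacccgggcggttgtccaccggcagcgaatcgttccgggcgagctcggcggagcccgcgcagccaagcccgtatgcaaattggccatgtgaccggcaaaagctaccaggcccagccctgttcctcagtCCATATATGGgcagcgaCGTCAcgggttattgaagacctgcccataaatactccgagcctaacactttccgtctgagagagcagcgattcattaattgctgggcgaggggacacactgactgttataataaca
Nr4a1: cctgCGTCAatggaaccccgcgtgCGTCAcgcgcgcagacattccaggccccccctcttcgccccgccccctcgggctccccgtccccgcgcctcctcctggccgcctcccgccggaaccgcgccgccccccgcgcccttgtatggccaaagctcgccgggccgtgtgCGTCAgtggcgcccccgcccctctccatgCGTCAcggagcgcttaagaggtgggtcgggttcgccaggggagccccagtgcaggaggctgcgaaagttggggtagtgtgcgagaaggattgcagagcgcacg
Dusp1: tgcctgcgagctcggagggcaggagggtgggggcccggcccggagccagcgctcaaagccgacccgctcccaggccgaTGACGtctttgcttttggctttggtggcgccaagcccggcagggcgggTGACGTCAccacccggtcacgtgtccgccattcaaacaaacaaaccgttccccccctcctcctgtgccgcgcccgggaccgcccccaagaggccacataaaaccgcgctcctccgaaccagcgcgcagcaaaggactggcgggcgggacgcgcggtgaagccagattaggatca
The Egr2 window held 1 CArG box, 83 bases before the start, and 1 TGACG core. The Nr4a1 window held 4 TGACG cores and the Dusp1 window 3, of which 2 overlap as the full palindrome TGACGTCA. These matches describe the letters only.

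Egr2, a zinc finger transcription factor, had log2 signals of 7.56, 7.39 and 8.28 on the methylphenidate arrays, against 8.96, 9.02, 9.82, 9.39 and 9.36 on the saline arrays. The groups did not overlap, and the difference of -1.57 ± 0.36 did not pass (adjusted p = 0.0692). Against saline 4 and 5 it was -1.63 ± 0.45 (adjusted p = 0.478). Nr4a1, an orphan nuclear receptor, had 7.98, 8.41 and 8.36 on the methylphenidate arrays, against 8.85, 9.26, 9.67, 9.22 and 9.22 on the saline arrays. Again no methylphenidate array reached the lowest saline array, and the difference was -0.99 ± 0.22 (adjusted p = 0.0614), or -0.96 ± 0.28 against saline 4 and 5 (adjusted p = 0.595).

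Fos, a subunit of the AP-1 transcription factor, had 8.36, 8.14 and 8.86 on the methylphenidate arrays, against 8.89, 10.32, 10.44, 10.05 and 10.06 on the saline arrays. Saline replicate 1 stood low among the saline arrays, just above the highest methylphenidate array, and the groups still did not overlap. The difference was -1.50 ± 0.38 (adjusted p = 0.0995), and -1.60 ± 0.49 against saline 4 and 5 (adjusted p = 0.698). Dusp1, a phosphatase that switches off MAP kinases, had 9.24, 9.75 and 9.36 on the methylphenidate arrays, against 10.22, 10.15, 10.31, 10.18 and 10.38 on the saline arrays. These groups did not overlap, with a difference of -0.80 ± 0.24 (adjusted p = 0.153), or -0.83 against saline 4 and 5. Egr1, a close relative of Egr2, had 12.54, 12.35 and 12.38 on the methylphenidate arrays, against 12.80, 12.78, 13.08, 12.86 and 12.77 on the saline arrays (difference -0.44 ± 0.13, adjusted p = 0.154; -0.39 against saline 4 and 5). The shift of Egr1 was smaller than that of Egr2 although its groups were also apart.

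Of the 26 activity genes tested, 1 passed, which was Arc, and 8 had an unadjusted p under 0.05. Of all 8530 genes tested, 11 passed and 1131 had an unadjusted p under 0.05. All 3 methylphenidate arrays were below all 5 saline arrays for 7 of the 26 genes and above them for 1, where this was so for 3.96% and 3.69% of all genes tested. The list median was -0.096 log2 units, with 15 genes below 0, against all saline arrays. It was -0.20, with 21 genes below 0, against saline 4 and 5, where all genes tested had a median of -0.0079. The mean log2 signal over the list was 9.63 to 9.73 on the methylphenidate arrays, 10.03 to 10.08 on saline 4 and 5 and 9.80 to 9.995 on saline 1 to 3. With any 1 of the 8 arrays left out, 15 or 16 genes were below 0 against the remaining saline arrays, and the median moved to -0.17 without methylphenidate 2 and to -0.065 without saline 3. The median from saline 4 and 5 was -0.12 without saline 4 and -0.33 without saline 5. Per1, a clock gene that activity also induces, was below every saline array and differed by -0.38 ± 0.20 from all of them (adjusted p = 0.406). Homer1, a postsynaptic scaffold gene, differed by -0.09 ± 0.11 (adjusted p = 0.803). Of the 11 genes above 0, the 1 that lay above every saline array was Inhba, which encodes a subunit of activin, with 0.58 ± 0.21 (adjusted p = 0.209).

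**Figure D2:**
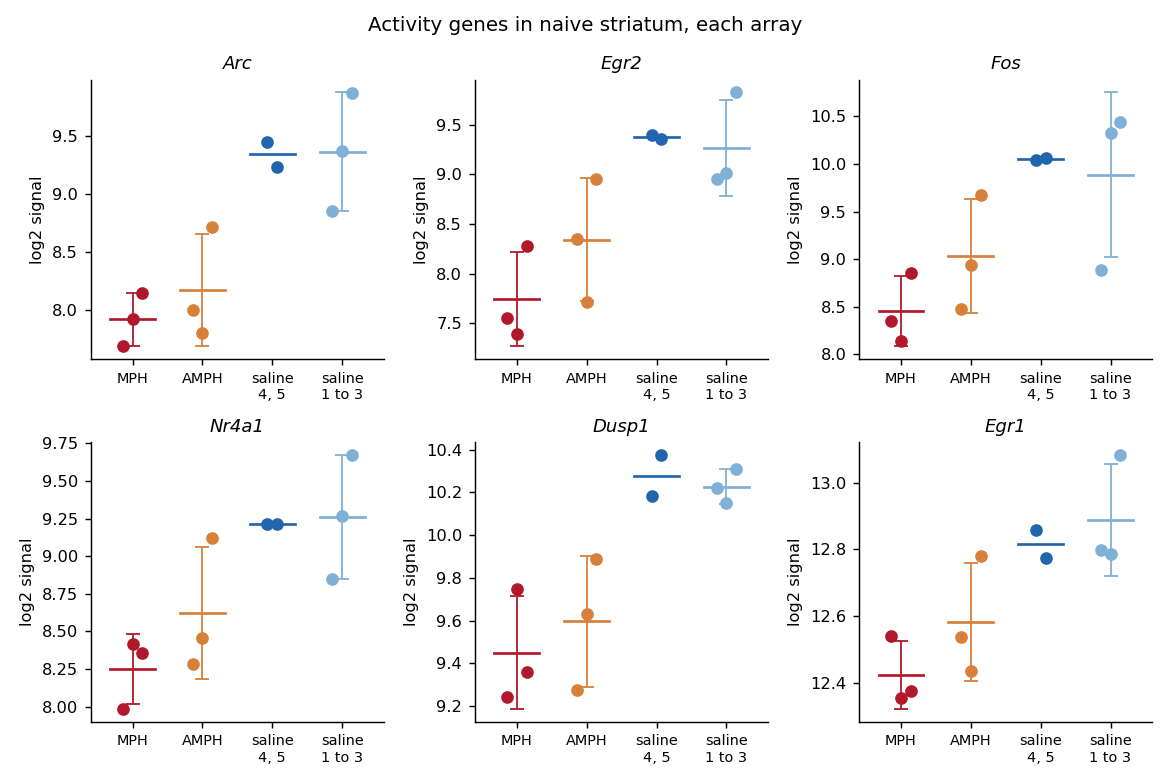
Log2 signal of 6 activity genes on each naive striatal array (points) for methylphenidate (MPH), amphetamine at 5 mg/kg (AMPH), saline 4 and 5 and saline 1 to 3, with means (lines) and SD (bars, groups of 3). In each panel the 3 methylphenidate arrays lie below all 5 saline arrays, and the amphetamine mean lies between the methylphenidate and saline means. The 6 genes shown are from the 7 of 26 tested activity genes for which the methylphenidate arrays lay below all saline arrays.

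The other 8 genes that fell take part in different processes. Mmp14, a membrane-bound matrix metalloproteinase, had 7.45, 7.11 and 7.10 on the methylphenidate arrays, against 8.62, 7.89, 8.78, 7.94 and 8.38 on the saline arrays. It differed by -1.10 ± 0.20 (adjusted p = 0.0209), with no overlap between the groups, and by -0.94 ± 0.25 against saline 4 and 5. A second Mmp14 probe set moved alike, by -0.85. Dnm3, a dynamin that pinches membrane vesicles off, had 6.83, 6.84 and 6.28 on the methylphenidate arrays, against 7.58, 7.54, 7.76, 7.59 and 8.08 on the saline arrays (difference -1.06 ± 0.22, adjusted p = 0.0472). Against saline 4 and 5 Dnm3 differed by -1.19 ± 0.28. Its second probe set differed by -0.66 from all saline arrays and by -0.02 from saline 4 and 5, so that the 2 probe sets disagreed in the latter comparison.

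Nsrp1, a splicing regulator of nuclear speckles, had 6.87, 7.25 and 6.92 on the methylphenidate arrays, against 7.88, 8.30, 8.19, 7.80 and 8.09 on the saline arrays. All saline arrays were higher, and the difference was -1.04 ± 0.18 (adjusted p = 0.0209), or -0.94 against saline 4 and 5. Its other probe sets differed by -0.23 and -0.63 from all saline arrays and by -0.08 and -0.44 from saline 4 and 5. Septin3, a filament protein of neurons, had 7.08, 7.28 and 6.86 on the methylphenidate arrays, against 7.97, 8.07, 8.20, 7.88 and 7.68 on the saline arrays (difference -0.89 ± 0.16, adjusted p = 0.0209). Zfp365, a zinc finger protein gene, had 10.79, 10.67 and 10.86 on the methylphenidate arrays, against 11.30, 11.51, 11.47, 11.53 and 11.28 on the saline arrays (difference -0.65 ± 0.13, adjusted p = 0.0398). For both genes every methylphenidate array was the lower one, and the differences from saline 4 and 5 were -0.70 for Septin3 and -0.63 for Zfp365. A second Septin3 probe set differed by -0.42 from all saline arrays and by -0.07 from saline 4 and 5.

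Fkbp8, Gosr2 and Nucks1 fell less. Fkbp8, an anti-apoptotic immunophilin of mitochondria, had 9.66, 9.60 and 9.70 on the methylphenidate arrays, against 10.61, 10.51, 10.32, 9.99 and 9.85 on the saline arrays. Its saline values divided by BioB signal: the difference of -0.60 ± 0.12 against all saline arrays (adjusted p = 0.0417) was -0.27 ± 0.11 against saline 4 and 5, and saline 4 and 5 differed from saline 1 to 3 by -0.56 ± 0.11 (adjusted p = 0.00698). Gosr2, a SNARE of the Golgi, differed by -0.46 ± 0.10 against all saline arrays and by -0.31 ± 0.11 against saline 4 and 5. Nucks1, a nuclear substrate of casein and cyclin-dependent kinases, differed by -0.44 ± 0.09 and by -0.47 ± 0.12. The adjusted p of both was 0.0472 against all saline arrays. Other probe sets differed from all saline arrays by -0.16 for Gosr2 and by -0.08 and -0.37 for Nucks1.

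Tpd52l2, of the tumour protein D52 family, had 10.07, 10.08 and 9.88 on the methylphenidate arrays, against 9.41, 9.52, 9.41, 9.59 and 9.67 on the saline arrays. It was 1.41 times higher (log2 difference 0.49 ± 0.10, adjusted p = 0.0472), and 0.38 ± 0.12 log2 units higher than saline 4 and 5. Phip, which encodes a chromatin reader that binds insulin receptor substrate, had 11.27, 11.39 and 11.17 on the methylphenidate arrays, against 10.58, 10.37, 10.65, 10.83 and 10.98 on the saline arrays. Phip differed by 0.59 ± 0.13 against all saline arrays (adjusted p = 0.0489) and by 0.37 ± 0.14 against saline 4 and 5, which were the saline arrays nearest to methylphenidate. Its 2 other probe sets differed by 0.14 and 0.20 from all saline arrays and by 0.15 and -0.03 from saline 4 and 5, so that the rise rested on 1 of 3 probe sets. The genes next in order of p on the higher side were Ltn1, Ptpn12 and Zfp266, with adjusted p-values of 0.0685, 0.0757 and 0.0771.

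**Figure D3:**
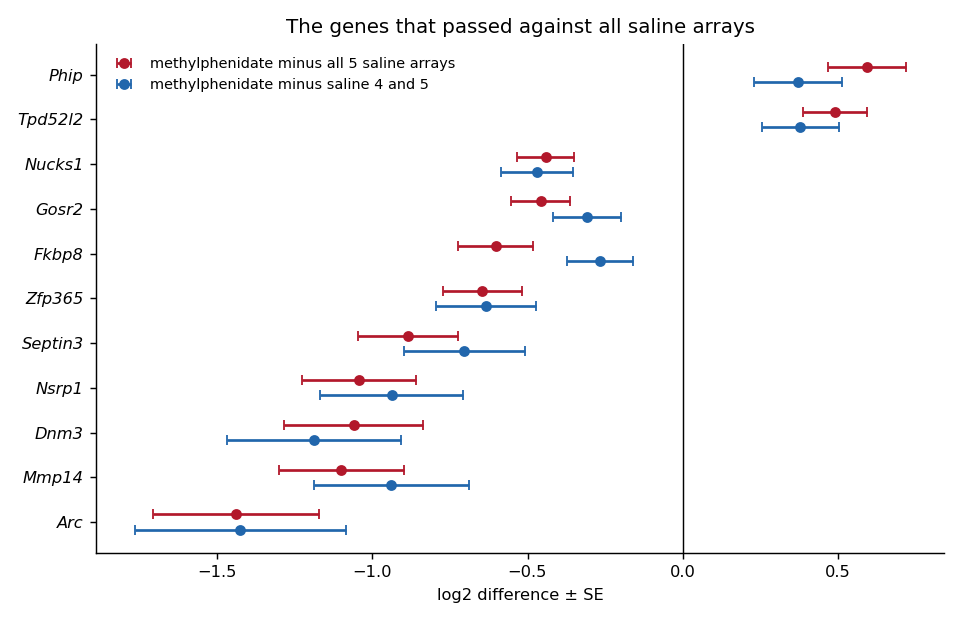
Log2 difference of methylphenidate from all 5 saline arrays and from saline 4 and 5 for the 11 genes that passed against all saline arrays, with SE bars. The estimates against saline 4 and 5 stand on the same side of 0, none passed there, and Fkbp8 is the gene whose estimate is nearest to 0.

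Against saline 4 and 5, 1 gene of 8530 passed (0.0117%), and 379 had an unadjusted p under 0.05. It was Hbb, the beta globin of red blood cells. Hbb had 13.82, 13.86 and 13.40 on the methylphenidate arrays, against 10.54 and 9.48 on saline 4 and 5 and 13.57, 12.44 and 13.48 on saline 1 to 3. Saline 4 and 5 stood alone at the low end, and methylphenidate and saline 1 to 3 overlapped. The difference from saline 4 and 5 was 3.68 ± 0.39 log2 units, 12.9-fold (adjusted p = 5.74e-06; it passed with any 1 of these 5 arrays left out), and that from all saline arrays was 1.79 ± 0.57 (adjusted p = 0.164). Hba-a3, an alpha globin gene, had 10.23, 10.02 and 9.40 on the methylphenidate arrays, against 7.71 and 7.00 on saline 4 and 5 and 9.29, 9.05 and 9.15 on saline 1 to 3. Its difference from saline 4 and 5 was 2.53 ± 0.66 (adjusted p = 0.345). Prefrontal saline 4 and 5 stood low for Hbb too, at 10.19 and 9.22. Amphetamine striatum differed from striatal saline 4 and 5 by 3.245 for Hbb (limma adjusted p = 7.26e-05). Prefrontal methylphenidate differed from prefrontal saline 4 and 5 by 3.748 (limma adjusted p = 6.51e-08). The Hbb difference was thus not particular to methylphenidate or to striatum. In bulk tissue fewer cells of a type and less RNA per cell cannot be told apart. After Hbb, the smallest p-values on the lower side belonged to Trmu, Rab11fip2, Dnm3, Arc and Nsrp1 (adjusted p 0.235 to 0.345), and on the higher side to Nat8f3, Tra2a, Klhl29 and Hba-a3 (each 0.345).

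Saline 4 and 5 differed from saline 1 to 3 at more genes than methylphenidate differed from all 5. Of 8530 genes, 219 passed (2.57%), 133 higher (1.56%) and 86 lower (1.01%) on saline 4 and 5. The count was 0 without saline 5 and 39, 72, 90 and 107 without saline 4, 3, 2 and 1. Sgk1, a kinase gene induced by glucocorticoids, was 1.68 ± 0.43 log2 units higher on saline 4 and 5 (adjusted p = 0.0326), and Cebpb, a transcription factor of the acute phase response, 1.25 ± 0.31 higher (adjusted p = 0.0306). The methylphenidate arrays, at 11.74, 11.77 and 12.54 for Sgk1, were above saline 1 to 3, at 10.56, 10.98 and 10.68, and overlapped saline 4 and 5, at 12.13 and 12.72. The 2 saline sets also differed in region markers, as saline 4 and 5 minus saline 1 to 3. Medians were 0.655 for cortical (8 of 10 above 0), 0.632 for thalamus, hypothalamus, septum and pallidum (7 of 10 above 0) and -0.25 for striatal projection neuron markers (20 of 25 below 0). The part of dissection was not tested. Methylphenidate arrays share the BioB level of saline 4 and 5. Against saline 1 to 3, treatment thus cannot be told apart from BioB level or whatever else divides the saline sets.

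The gene lists were described by counts and medians. Against all saline arrays, none of the tested genes of the other 29 lists passed, where 0.129% of all 8530 genes tested did. With so low a share, the absence of calls says little about these lists. Striatal projection neuron markers had a median of -0.12 log2 units over 25 genes, with 20 below 0, and of 0.042, with 9 below 0, against saline 4 and 5. Drd1, the D1 dopamine receptor of the direct pathway, had 12.78, 12.59 and 12.78 on the methylphenidate arrays, against 12.92, 12.64, 12.46, 12.69 and 12.53 on the saline arrays. Drd2, the receptor of the indirect pathway, had 11.81, 11.71 and 11.63, against 11.92, 12.04, 11.92, 11.62 and 11.63. Both receptors overlapped between the groups, with differences of 0.07 ± 0.39 and -0.11 ± 0.52 from all saline arrays and of 0.11 and 0.09 from saline 4 and 5. Their SE was 0.10 and 0.12 without 1 methamphetamine array (1.25 mg/kg, replicate 1), which had a cortical profile and shared the estimate of spread. In that fit Adora2a differed by 0.15 ± 0.10, the opioid peptide gene Penk by -0.05 ± 0.11, Pdyn by 0.39 ± 0.20, the tachykinin gene Tac1 by -0.12 ± 0.11, and Ppp1r1b, which encodes the dopamine-regulated phosphatase inhibitor DARPP-32, by -0.21 ± 0.11, with adjusted p-values of 0.376 to 0.86.

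No gene of the synapse lists passed, where 0.129% of all 8530 genes tested did against all saline arrays. Of 30 glutamate receptor and postsynaptic genes 22 were below 0, with a median of -0.12, and of 21 genes of vesicle release 16 were below 0, with a median of -0.12, while 51.5% of all genes tested were above 0. The medians from saline 4 and 5 were -0.033, with 18 of 30 below 0, and -0.10, with 18 of 21 below 0. Lists of other processes had like values against all saline arrays: sterol synthesis had a median of -0.14 (14 of 20 below 0), myelin -0.11 (17 of 22), ribosomal proteins -0.066 (31 of 38) and oxidative phosphorylation -0.060 (45 of 63). Cplx2, a complexin that clamps vesicle fusion, had 12.68, 12.52 and 12.78 on the methylphenidate arrays, against 13.13, 13.38, 13.28, 12.96 and 12.63 on the saline arrays, of which saline 5 overlapped. The difference was -0.42 ± 0.13 from all saline arrays (adjusted p = 0.159) and -0.13 from saline 4 and 5. Grm5, a metabotropic glutamate receptor gene, spread widely, with 10.01, 8.58 and 10.92 on the methylphenidate arrays against 10.89, 10.88, 10.16, 11.07 and 11.17 on the saline arrays (adjusted p = 0.216).

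Among clock genes, Per2, a repressor in the clock's feedback loop, had 10.30, 10.30 and 10.23 on the methylphenidate arrays, against 9.69, 9.84, 9.79, 9.42 and 9.54 on the saline arrays. Nr1d2, a nuclear receptor that represses Bmal1, had 11.84, 11.70 and 11.88, against 11.46, 11.44, 11.44, 11.54 and 11.52. Both were higher on every methylphenidate array than on any saline array, by 0.62 ± 0.19 (adjusted p = 0.159) and 0.33 ± 0.08 (adjusted p = 0.0794), and by 0.80 and 0.28 against saline 4 and 5. Without the array of cortical profile, Nr1d2 passed at an adjusted p of 0.0469. The clock list as a whole had a median of 0.0029 over 20 genes, and Dbp, a clock output gene, differed by 0.06 ± 0.18 from all saline arrays and by 0.44 from saline 4 and 5.

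Markers of other cell types differed in how the 3 sets of arrays stood. Endothelial and pericyte markers had a median of 0.19 over 19 genes against all saline arrays and of 0.50 against saline 4 and 5, with list means of 8.52 to 9.79 on the methylphenidate arrays, 8.37 to 8.99 on saline 4 and 5 and 8.83 to 9.35 on saline 1 to 3. Blood cell genes had a median of 1.44 over 3 genes and of 2.53, with list means of 10.27 to 10.84 on the methylphenidate arrays, 8.13 to 8.63 on saline 4 and 5 and 9.66 to 10.31 on saline 1 to 3. Choroid plexus and ependyma markers lay low against both, with medians of -0.65 and -0.47 over 6 genes, of which 5 were below 0 in each case. Their list means were 9.32 to 9.37 on the methylphenidate arrays, 9.55 to 10.02 on saline 4 and 5 and 9.70 to 10.12 on saline 1 to 3. Foxj1, the regulator of motile cilia, had 7.33, 7.65 and 7.54 on the methylphenidate arrays, against 8.39, 8.62, 8.63, 8.05 and 7.44 on the saline arrays, where saline 5 overlapped. The difference was -0.72 from all saline arrays (adjusted p = 0.324) and -0.24 from saline 4 and 5. Of 20 astrocyte genes 18 were below 0 against all saline arrays, with a median of -0.11. Against saline 4 and 5, 10 of the 20 were below 0, with a median of -0.024. Between the saline sets, 16 of the 20 were lower on saline 4 and 5. Id3, a helix-loop-helix inhibitor, differed by -0.74 ± 0.19 from all saline arrays and by -0.18 ± 0.16 from saline 4 and 5. The part of these cell types in the other differences was not tested.

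**Figure D4:**
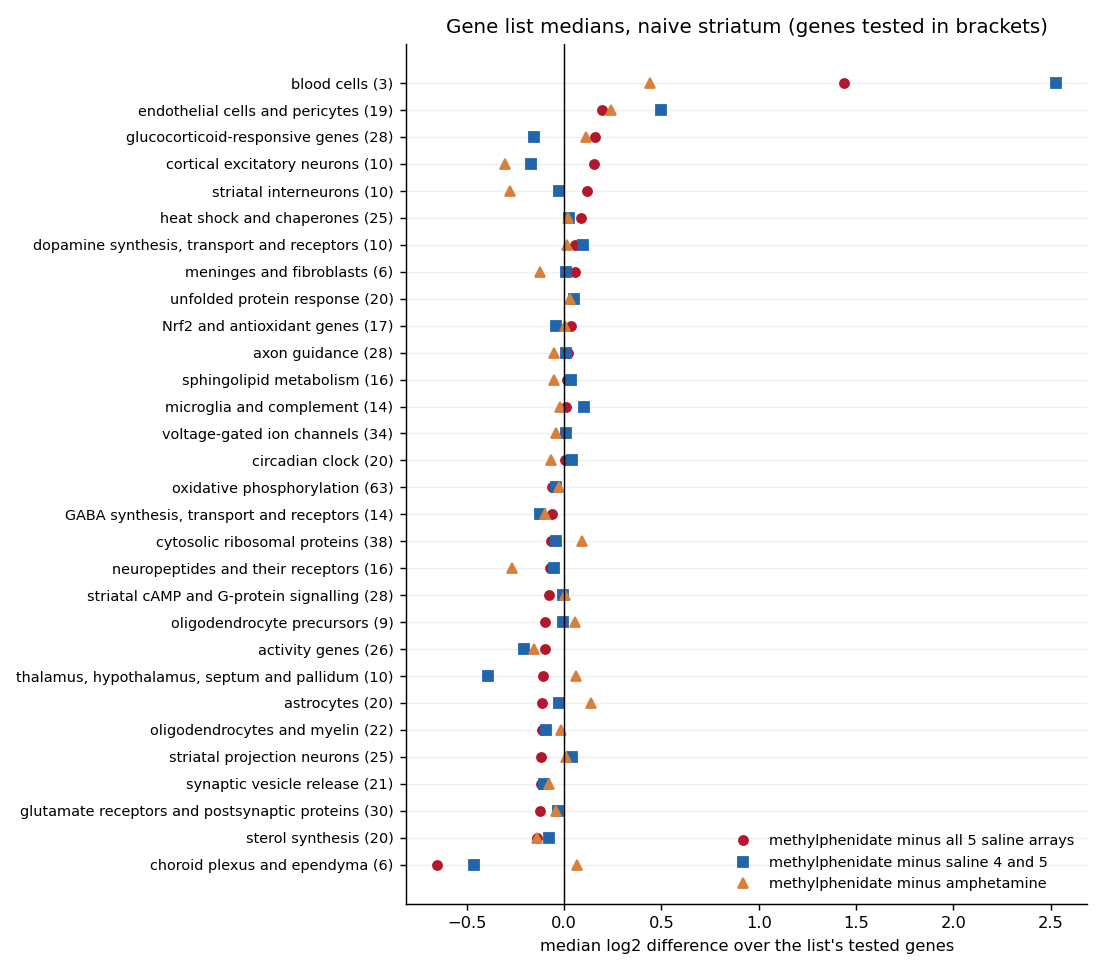
Median log2 difference over the tested genes of each of 30 lists for methylphenidate against all 5 saline arrays, against saline 4 and 5 and against amphetamine. Blood cell genes lie far to the right and choroid plexus genes to the left against saline, while most lists lie near 0.

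Amphetamine at 5 mg/kg releases dopamine as well as blocking its transporter. Its arrays, with BioB at 6.22 to 6.48, had the same low signal as methylphenidate, and the infused doses differed (0.25 mg of methylphenidate against 0.1 mg/kg of amphetamine). No gene of 8530 passed between methylphenidate and amphetamine (0.00%; limma, smallest adjusted p 0.9997), and 291 had an unadjusted p under 0.05. Arc had 8.0, 7.80 and 8.72 on the amphetamine arrays, overlapping methylphenidate, and methylphenidate minus amphetamine was -0.26 log2 units with a 95% interval of -0.87 to 0.36. For Egr2 the difference was -0.60 (interval -1.41 to 0.21), for Fos -0.58 (interval -1.45 to 0.29) and for Nr4a1 -0.37 (interval -0.87 to 0.14). These intervals hold 0 and also differences of over 1.5-fold, so they do not show that the drugs act alike. Against the same saline 4 and 5 arrays, Arc differed by -1.43 for methylphenidate and by -1.17 for amphetamine (adjusted p = 0.942), and Fos by -1.60 and by -1.02. Pla2g12a, a secreted phospholipase A2 gene, had the smallest p on the lower side, with -0.82 (interval -1.26 to -0.39). That interval is not adjusted for picking the gene among 8530 by its p, and Pla2g12a did not pass.

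Methamphetamine, a methylated and more lipophilic relative of amphetamine, was given at the same conditioning dose of 5 mg/kg. BioB stood at 9.56 to 10.4 on its arrays, so that drug and BioB level cannot be told apart in this comparison. Methylphenidate striatum had 134 genes past the threshold against methamphetamine (1.57%), 59 higher (0.692%) and 75 lower (0.879%). With the replicate number as a block 229 passed, but the correlations of same-numbered arrays do not establish that these 2 groups are paired. The count was 1 without methylphenidate 1 (Eif5a) or without methylphenidate 2 (Elavl1), 77 without methamphetamine 1 and 55 without methamphetamine 2. Of the 26 activity genes 8 passed, all lower with methylphenidate. Egr2 had 7.56, 7.39 and 8.28 on the methylphenidate arrays, against 9.81, 9.98 and 10.16 on the methamphetamine arrays (difference -2.24 ± 0.40, adjusted p = 0.00781). Nr4a3, an orphan nuclear receptor gene related to Nr4a1, had 7.60, 7.57 and 7.96, against 9.26, 9.51 and 10.05 (difference -1.90 ± 0.35, adjusted p = 0.00811). Neither gene overlapped between the drugs. Fos, Arc, Nr4a1 and Per1 were also lower than with methamphetamine, by 1.61, 1.24, 1.13 and 1.00 log2 units (adjusted p 0.0239 to 0.049). These gaps include the change with methamphetamine. Against saline 1 to 3, methamphetamine differed by 1.62 for Nr4a3 (limma adjusted p = 0.0288). It differed by 0.72 for Egr2, 0.64 for Per1, 0.17 for Fos, 0.12 for Nr4a1 and -0.21 for Arc (adjusted p 0.187 to 0.902). When each drug was set against the saline arrays of its own BioB level, only Hbb passed for the difference of the 2 effects. In that fit Nr4a3 differed by -2.62 ± 0.50 (adjusted p = 0.0787), Egr2 by -2.35 ± 0.61 (adjusted p = 0.299) and Arc by -1.22 ± 0.46 (adjusted p = 0.529).

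Pretreated rats had received methylphenidate at 5 mg/kg in place of saline in the 7 days before the tests, and all their arrays had a high BioB signal (9.71 to 10.03 with methylphenidate, 9.62 to 9.81 with saline). The effect of methylphenidate in naive striatum minus that in pretreated striatum passed for 1 gene (0.0117%), with 1234 genes at an unadjusted p under 0.05. Clcn4, a chloride and proton exchanger gene of endosomes, had 10.54, 10.42 and 10.29 with methylphenidate against 10.31, 9.88, 10.07, 10.04 and 10.26 with saline in naive striatum. In pretreated striatum it had 9.73, 9.80 and 10.05 with methylphenidate against 10.30, 10.36 and 10.34 with saline. The naive groups overlapped and the pretreated ones did not, with the opposite direction, and the difference of effects was 0.78 ± 0.14 (adjusted p = 0.0338). A second Clcn4 probe set, of mean log2 signal 5.84, went the other way in naive striatum. It differed by -0.41 from all saline arrays and by -0.93 from saline 4 and 5. Each of the 14 arrays, left out, moved the count by over 1.5 times, to between 0 and 85, and against saline 4 and 5 alone Hbb passed and Clcn4 did not.

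Arc in pretreated striatum had 8.95, 8.15 and 7.88 with methylphenidate against 8.86, 8.61 and 8.64 with saline. These groups overlapped (difference -0.38, adjusted p = 0.626), and the naive effect minus the pretreated effect was -1.06 ± 0.40 (adjusted p = 0.226). Fos differed by -0.56 and Egr2 by -0.57 in pretreated striatum (adjusted p 0.613 and 0.574). Septin3 and Zfp365, which fell in naive striatum, differed by 0.33 and by 0.24 in pretreated striatum, and their differences of effects were -1.22 ± 0.24 (adjusted p = 0.0694) and -0.88 ± 0.19 (adjusted p = 0.0869).

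In prefrontal cortex of naive rats, methylphenidate and saline differed by -0.86 for Arc, -1.01 for Egr2, -1.33 for Fos and -0.71 for Nr4a1 (adjusted p 0.245 to 0.309). Against prefrontal saline 4 and 5 the differences were -1.11, -1.20, -1.28 and -0.76, none of which passed. Arc had 7.93, 8.22 and 8.73 with methylphenidate against 8.16, 9.13, 9.66, 9.63 and 9.16 with saline, where saline replicate 1 stood below the others and within the methylphenidate range. No gene of 8530 passed for the striatal effect minus the prefrontal effect (0.00%; limma, smallest adjusted p 0.890), and 299 had an unadjusted p under 0.05. Zfp365 and Septin3 had among the smallest p on the lower side, with differences of effects of -0.86 ± 0.23 and -0.87 ± 0.24, and in prefrontal cortex they differed from saline by 0.22 and by -0.02.

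**Figure D5:**
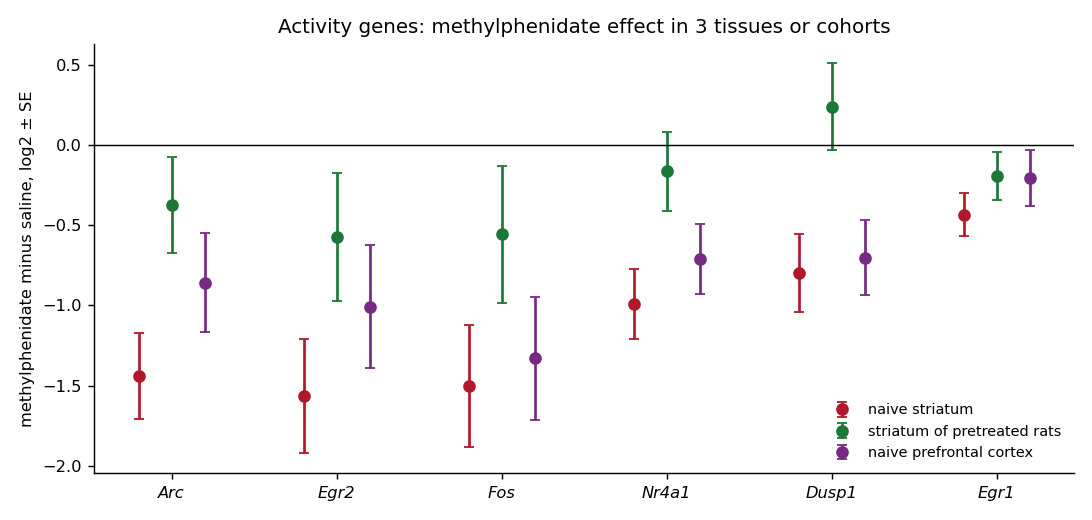
Methylphenidate minus saline (log2 difference, SE bars) for 6 activity genes in naive striatum, in striatum of pretreated rats and in naive prefrontal cortex. The naive striatal estimate is the lowest of the 3 for each gene, and the tests of the differences did not pass. The 6 genes shown all stood low with methylphenidate in naive striatum, so this order follows in part from their choice.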

How the data were processed

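The deposited values are linear signal intensities of 31099 probe sets on 63 one-colour Affymetrix rat arrays, made with MAS5 per the submitters' processing notes; the genome build and annotation release are not given in the sources used here. Of the probe sets, 20832 had 1 gene symbol in the platform annotation, 436 several and 9831 none, and those with several or none were left out. Signals were floored at 1 and put on the log2 scale, with 1 probe set per gene (the highest mean over all arrays). The 40% of genes with the lowest striatal mean were left out, which left 8530. For striatal minus prefrontal effects the filter used the mean over all 63 arrays instead, which also left 8530. No normalization was added to the authors' scaling. The number of arrays limits the precision.

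Each comparison was a contrast in limma 3.58.1 (R 4.3.3, lmFit and eBayes with an intensity trend). The 32 striatal arrays were fitted together with 1 mean per group, and all 63 for the comparison with prefrontal cortex. P-values were Benjamini-Hochberg adjusted over the 8530 genes of the comparison, with a threshold of 0.05. For saline 4 and 5 the saline group was split by BioB signal at 8 log2 units. The code was tested on simulated data.

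The arrays and gene lists were chosen with earlier results of these data known. Genes named are up to 12 per direction with the largest change among those past the threshold, or, in a direction with fewer than 5 such genes, the 5 of lowest p (3 in the comparisons other than with saline), up to 4 genes of smallest p per list, and a fixed set of activity, clock and striatal genes. Dusp1 is named as a member of the glucocorticoid list, and Eif5a and Inhba were named after their values were seen.

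Replicate numbers were checked for pairing by the correlation of deviations from group means. It was 0.203, 0.362 and 0.441 for same-numbered methylphenidate and methamphetamine arrays, and 0.041, 0.0772 and -0.17 for methylphenidate and saline. Methylphenidate 1 correlated at 0.196 with methamphetamine 2 as well, so the values for these drugs do not establish pairing. The replicate block was run as an alternative only. Same-numbered striatal and prefrontal arrays correlated at 0.23 to 0.54 in the 5 saline pairs and at 0.0269, 0.316 and 0.366 in the methylphenidate pairs. Differently numbered saline arrays correlated at 0.0204 to 0.443 where the BioB level was the same, and at -0.485 to -0.221 where it differed. The values for the 2 regions thus do not establish pairing either. The main fit took the 2 regions as independent, which leaves out any such pairing. The fit with the block also called 0 genes. Alternatives covered normalization, the constant, the filter, probe sets, the trend, the arrays fitted, blocks, the Gapdh ratio and each replicate left out. Replicates of a group correlated at 0.969 to 0.988.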

Additional observations from a re-analysis of the deposited data

Results flagged for a closer look

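In naive striatum, Fos on saline replicate 1 was 8.89 log2 units, far below the other 4 saline arrays at 10.05 to 10.45. Nucks1 on saline replicate 1 was 10.56, below the others at 10.77 to 10.85, and Egr1 on saline replicate 3 was 13.08, above the others at 12.77 to 12.86. Each gap exceeded what Dixon's test allows for 5 samples at the 95% level, which chance passes for about 1 group in 20, and 42 genes were checked. Without saline 1, Nucks1 still passed against the remaining saline arrays. Clcn4, on the probe set tested, had a methylphenidate effect that differed between naive and pretreated striatum by 0.78 log2 units, by the test of the difference itself. These values were not weighed further.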

How the results depend on the processing

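Methylphenidate against all saline arrays gave 11 genes. It gave 7 with quantile normalization, 0 with the filter at 60%, 101 over all probe sets (14 higher, 87 lower), 5 with only the groups compared in the fit, 562 with the replicate block, 1 with the BioB level as a block (Hbb) and 0 with the Gapdh ratio as a covariate. The block takes saline 4 and 5 out of the contrast, since no other striatal group has replicate numbers 4 and 5, and the cause of the other shifts was not tested. With an array left out, the count was 0 to 119. Against saline 4 and 5 it was 5 with no filter, 11 over all probe sets, 2 without the trend, 2 with only the groups compared, and 1 to 3 with an array left out. Saline 4 and 5 against saline 1 to 3 gave 499 over all probe sets, 545 with only the groups compared, 348 without the array of cortical profile, and 0 to 107 with an array left out. No paired analysis was possible because saline 4 and 5 share no replicate number with the other group of these 2 comparisons. Against methamphetamine, 83 passed with no filter, 212 over all probe sets, 2 with only the groups compared, 229 with the replicate block, 1 with each drug against saline of its BioB level (chosen after seeing the data) and 1 to 153 with an array left out. For naive minus pretreated effects, 0 passed with quantile normalization, 2 with no filter, 3 over all probe sets, 3 without the trend, 20 with only the groups compared, 33 without the array of cortical profile, 207 with the replicate block and 0 to 85 with an array left out. The counts against amphetamine and for striatal minus prefrontal effects were 0 under each alternative run. Differences from all saline arrays that changed sign were Penk (0.016 with quantile normalization, 0.042 with the BioB block), Drd2 (0.086), Cartpt (-0.26), Ppp1r1b (0.044) and Rgs9 (0.025) with the BioB block, Drd1 (-0.16), Adora2a (-0.11) and Cartpt (-0.046) with the Gapdh ratio, Dbp (-0.20 with the replicate block, -0.004, -0.078 and -0.02 without saline 4, saline 5 or methylphenidate 1, and up to 0.15 with another array left out) and Dnajb1 (-0.026 without methylphenidate 3, up to 0.123 with another array left out). Arc passed in 12 of 18 alternatives, with adjusted p-values of 0.00955 to 0.345. With 3 arrays against 5 or 2, the number of arrays limits every statement.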

Other observations

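Pnlip, the gene of pancreatic lipase, had log2 signals of 9.11, 8.87 and 8.30 on the methylphenidate arrays, against 9.38, 9.24, 9.48, 9.28 and 9.38 on the saline arrays of naive striatum. All 3 methylphenidate arrays were below all 5 saline arrays, by -0.60 ± 0.15 (adjusted p = 0.0995), and the difference from saline 4 and 5 was -0.58. Acer2, an alkaline ceramidase gene, had 9.22, 9.33 and 8.54 on the methylphenidate arrays, against 7.12, 8.20, 7.58, 7.03 and 8.51 on the saline arrays, a difference of 1.35 ± 0.50 (adjusted p = 0.232), or 1.27 from saline 4 and 5. Aspa, the oligodendrocyte aspartoacylase gene, had 8.85, 9.01 and 9.43, against 9.68, 9.68, 9.84, 9.78 and 10.01 (difference -0.70 ± 0.19, adjusted p = 0.131; -0.80 from saline 4 and 5). In both genes the groups did not overlap. Oprk1, the kappa opioid receptor gene, had 8.80, 8.35 and 8.53, against 8.24, 8.16, 8.08, 7.77 and 7.79 (difference 0.55 ± 0.26, adjusted p = 0.355; 0.78 from saline 4 and 5), again without overlap.

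Chordc1, a co-chaperone of Hsp90, had 10.42, 10.44 and 10.45 on the methylphenidate arrays, against 10.02, 10.02, 10.18, 10.13 and 9.96 on the saline arrays. Hsp90ab1 itself had 12.54, 12.59 and 12.11, against 12.89, 12.90, 13.02, 12.79 and 12.86. The first was higher and the second lower on every methylphenidate array, by 0.37 ± 0.11 and -0.48 ± 0.14 (adjusted p = 0.141 and 0.148). Another Hsp90ab1 probe set, of mean log2 signal 12.89, differed by -0.14 from all saline arrays and by 0.07 from saline 4 and 5. The heat shock list of 25 genes had a median of 0.089 against all saline arrays and of 0.026 against saline 4 and 5.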
